A study of Mus musculus with 7 samples.

Results

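The BCL2 family of apoptosis regulators was followed in mouse embryonic fibroblasts (MEFs) under environmental stress. The family is represented by 10 genes chosen by symbol (Bcl2, Bcl2l1, Bcl2l2, Mcl1, Bax, Bak1, Bok, Bcl2l11, Bid and Bmf) out of 49382 rows of the expression table, and each symbol stood on 1 row. The cells were wild-type primary fibroblasts grown from embryos without the head, fetal liver and other red tissue. Untreated cells gave the control library, and each of 6 stress conditions gave 1 more. Only adherent cells were collected after washing, so cells that had died and detached are not in the libraries. Glucose-free medium, glutamine-free medium and 0.1% oxygen (hypoxia) were applied for 10 h, as was 1 μM thapsigargin, which blocks the calcium pump of the endoplasmic reticulum (ER stress). Sodium arsenite at 10 μM (oxidative stress) and 100 mM added NaCl (osmotic stress) were applied for 3 h. Between the 3 h and the 10 h conditions, kind of stress and duration cannot be told apart. The sources give no matching time for the control library. The sources do not say whether cells of several embryos were pooled, and each condition is 1 culture. With 1 library a condition and no replicates, differences cannot be set against the spread between cultures, and no p-value is given. The 6 changes also share the single control library, and any chance deviation of that library enters all of them.

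BCL2 family proteins decide whether the outer mitochondrial membrane stays intact. The survival proteins BCL2, BCL-XL (from Bcl2l1), BCL-W (from Bcl2l2) and MCL1 bind and restrain the effectors BAX and BAK, which otherwise form pores that release cytochrome c and start the caspase cascade. BOK is an effector-like protein, largely found at the ER and held low by protein degradation. The BH3-only proteins BIM (from Bcl2l11), BID and BMF sense stress and tip the balance by binding the survival proteins or by activating the effectors. Much of this control acts on the proteins, through cleavage, phosphorylation and turnover, and the values here are mRNA levels only.

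Values are TPM (transcripts in each 1000000 of a library), the share of a library that a gene's transcripts take after correction for length, so that levels can be compared between genes. A change is the difference in log2(TPM + 1) against the control library, and 2-fold on that scale was counted, as the study did for its stress conditions. Across the family, 1 of the 60 changes (10 genes in 6 conditions) passed 2-fold, that of Bok in ER stress. Another 7 lay between 1.5-fold and 2-fold, and 52 were within 1.5-fold. Expression was broad, with 9 of the 10 genes averaging 2 TPM or more across the libraries, the filter that kept 12909 genes. Bmf, at a mean of 1.76 TPM, was below it. The libraries were fibroblastic by their markers. The summed TPM of 9 fibroblast genes ran from 6163 to 12787, while those of leukocyte, endothelial, epithelial and erythroid markers reached at most 5.28, 4.84, 0.991 and 0.787. Of 4 skeletal muscle markers, Des reached 35.9 TPM, and Myf5 was at 0 in every library. In these bulk samples, fewer cells of a kind and less RNA per cell cannot be told apart.

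The starting regions of the 3 genes with the widest range over the libraries, Bok, Bcl2l11 and Bid, are shown to place the values that follow. Each sequence is the 250 bases before a RefSeq transcription start on GRCm38.p6, read 5′ to 3′ on the gene's strand. Capitals mark matches on either strand to the 8 motifs searched.
Bok, chr1:93685325-93685574, plus strand: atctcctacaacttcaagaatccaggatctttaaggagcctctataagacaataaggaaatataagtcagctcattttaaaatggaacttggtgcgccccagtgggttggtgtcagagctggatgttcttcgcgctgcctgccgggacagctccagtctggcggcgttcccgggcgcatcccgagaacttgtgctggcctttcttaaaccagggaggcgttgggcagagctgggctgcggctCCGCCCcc
Bcl2l11, chr2:128125788-128126037, plus strand: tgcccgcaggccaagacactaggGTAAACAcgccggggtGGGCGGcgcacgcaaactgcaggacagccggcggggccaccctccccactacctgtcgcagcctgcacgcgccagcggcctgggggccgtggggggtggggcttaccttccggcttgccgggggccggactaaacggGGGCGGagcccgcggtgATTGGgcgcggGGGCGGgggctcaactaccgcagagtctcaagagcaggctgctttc
Bid, chr6:120916825-120917074, minus strand: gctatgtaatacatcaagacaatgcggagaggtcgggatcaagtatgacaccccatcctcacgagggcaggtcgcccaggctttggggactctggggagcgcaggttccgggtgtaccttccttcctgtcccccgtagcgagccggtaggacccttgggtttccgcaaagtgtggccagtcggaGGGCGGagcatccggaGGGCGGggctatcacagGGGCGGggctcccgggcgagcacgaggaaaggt
The motifs were the GC box bound by Sp1 (GGGCGG), the E-box (CACGTG), the cyclic AMP response element (TGACGTCA), the CCAAT box (CCAAT), a FOXO site (GTAAACA), the core of the hypoxia response element (ACGTG, which lies within the E-box), the TATA box (TATAAA) and the ER stress response element, which is CCAAT and CCACG with 9 bases between them. The Bok window held 1 match, a GC box. That of Bid held 3 GC boxes, and that of Bcl2l11 held 3 GC boxes, 1 CCAAT box and 1 FOXO site. Among all 32851 promoter windows of this length, 32.7% held the GC box, 33.8% the CCAAT box and 3.17% the FOXO site. The other motifs were in 6.02% (E-box), 1.55% (cyclic AMP response element), 16.6% (hypoxia core), 12.4% (TATA box) and 0.113% (ER stress response element) of the windows. Bcl2l11 has another RefSeq start, not shown, whose window held 2 GC boxes and 2 CCAAT boxes. These matches are letters in a window and were not tested against the expression values.

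All 10 members are annotated as protein coding on GRCm38. Among the survival genes, Bcl2 (chr1:106538178-106714274, minus strand) and Bcl2l1 (chr2:152780668-152831728, minus) span much longer regions than Bcl2l2 (chr14:54883377-54888234, plus) and Mcl1 (chr3:95658788-95663176, plus). The effectors are at chr7:45461697-45466898 (Bax, minus), chr17:27019810-27029009 (Bak1, minus) and chr1:93685660-93695764 (Bok, plus). The BH3-only genes are at chr2:128126038-128162547 (Bcl2l11, plus), chr6:120891930-120916853 (Bid, minus) and chr2:118528757-118549687 (Bmf, minus). The annotation holds 9 transcripts of Bcl2l1 and 8 of Bcl2l11, genes known for splice forms of differing activity, and the deposited values are sums over the forms.

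Bax, whose product forms pores in the outer membrane, was the most abundant member in every library. It was at 346 TPM in the control and ranked 449 among the 12909 genes of that library. Its levels were 270.3 TPM in glucose depletion, 281 in glutamine depletion, 327 in hypoxia, 377 in ER stress, 315 in oxidative stress and 360.4 in osmotic stress. This was the narrowest relative range of the family, 1.40-fold between the lowest and the highest library. Bax alone took between 41.0% and 51.4% of the summed TPM of the 10 members.

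Bak1, which encodes the effector BAK, resident on mitochondria, stood at 133 TPM in the control. The conditions had lower levels, with 105 TPM in glucose depletion, 95.9 in glutamine depletion, 98.4 in hypoxia, 84.4 in ER stress, 114 in oxidative stress and 107 in osmotic stress. The log2 change was -0.65 in ER stress and between -0.47 and -0.22 elsewhere, and no condition passed 2-fold. The control was the highest of the 7 libraries, so these 6 differences rest on it, and against the median of the 7 libraries the values in osmotic and oxidative stress were above 0, at 0.03 and 0.12. Ggnbp1, a gene on the opposite strand that overlaps Bak1, was at 0.833 to 4.47 TPM.

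Bok was the member that moved most. It was at 27.7 TPM in the control, 34.7 in glucose depletion, 30.0 in glutamine depletion, 22.5 in hypoxia, 28.4 in oxidative stress and 23.9 in osmotic stress. The ER stress library, at 5.90 TPM, stood apart from these 6, and its level was 21.3% of the control. The log2 change of -2.06 in ER stress was past 3-fold, and the other 5 lay between -0.29 and 0.31. The ER stress library was also the most changed as a whole, and 11.0% of all genes were lower by more than 2-fold there. In the same library all 9 fibroblast markers were below the control, with a median log2 change of -0.86 and Col3a1, a fibrillar collagen, at -2.07. Their part in the Bok value was not tested. No other annotated gene overlaps Bok.

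**Figure D1:**
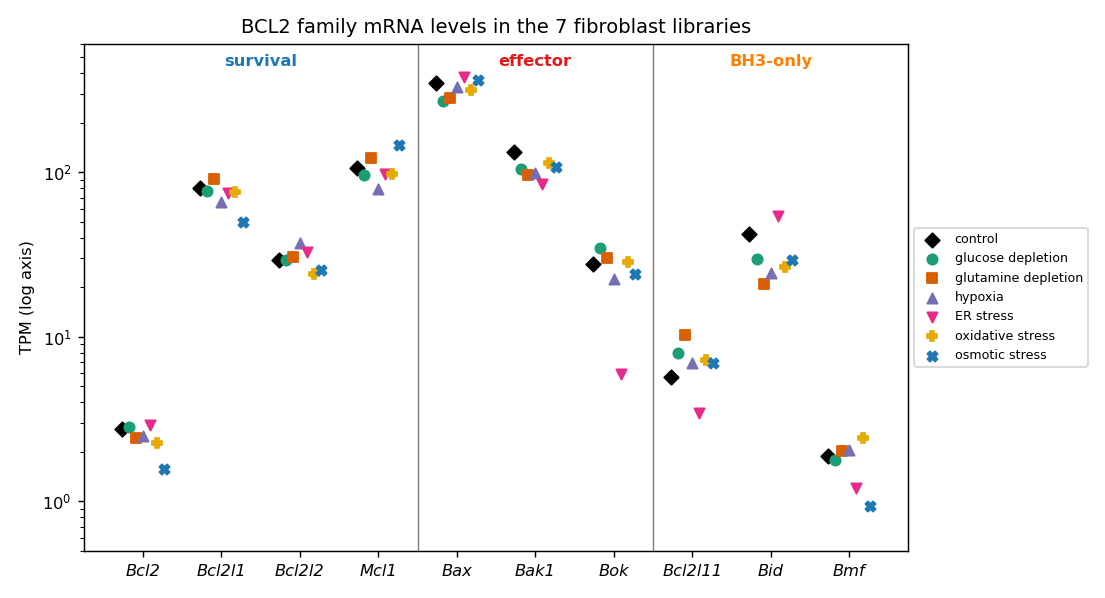
Level of each member in TPM (vertical log axis) in the 7 libraries, 1 symbol per library, grouped by role. Bax was the highest member in every library and Bok in ER stress, at 5.90 TPM, lay below its other 6 values of 22.5 to 34.7 TPM.

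Among the survival genes, Mcl1 and Bcl2l1 were the most abundant and differed in osmotic stress. Mcl1 encodes a short-lived protein whose level follows its synthesis closely. It was at 105 TPM in the control, 96.1 in glucose depletion, 121 in glutamine depletion, 79.1 in hypoxia, 96.8 in ER stress, 97.9 in oxidative stress and 147 in osmotic stress. The 3 h NaCl library was the highest and the hypoxia library the lowest, with log2 changes of 0.47 and -0.41. Bcl2l1 was at 79.7 TPM in the control, 76.6 in glucose depletion, 90.9 in glutamine depletion, 65.8 in hypoxia, 75.1 in ER stress, 76.1 in oxidative stress and 49.6 in osmotic stress. Here the NaCl library was the lowest, with a log2 change of -0.67. The table sums the transcripts of a gene, so the long survival form and the short death-promoting form of Bcl2l1 are not separated.

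The remaining survival genes, Bcl2 and Bcl2l2, were less abundant. Bcl2, the founding member, was near the expression filter, at 2.76 TPM in the control, 2.84 in glucose depletion, 2.43 in glutamine depletion, 2.51 in hypoxia, 2.92 in ER stress, 2.27 in oxidative stress and 1.58 in osmotic stress. As for Bcl2l1, the lowest level was in the NaCl library (log2 change -0.54). Bcl2l2 was at 29.4 TPM in the control, 29.2 in glucose depletion, 30.7 in glutamine depletion, 37.1 in hypoxia, 32.8 in ER stress, 24.2 in oxidative stress and 25.3 in osmotic stress. Its log2 change was highest in hypoxia, at 0.32. This gene overlaps Gm20521 on the same strand, and reads of shared exons are divided between them by estimation. Gm20521 was at 6.21 TPM in the control and listed at 0 in hypoxia and ER stress. With both added together, a choice made after seeing the data, the log2 change in hypoxia was 0.06, that in ER stress went from 0.15 to -0.12 and that in glutamine depletion from 0.06 to -0.13. The Bcl2l2 values above the control in these 3 libraries therefore depend on how the overlap was divided.

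The BH3-only genes Bcl2l11 and Bid had their extreme levels in the same libraries, at opposite ends. BIM, the product of Bcl2l11, is a potent activator that is induced when growth or nutrient signals fall. Bcl2l11 was at 5.67 TPM in the control, 7.91 in glucose depletion, 10.2 in glutamine depletion, 6.90 in hypoxia, 3.44 in ER stress, 7.21 in oxidative stress and 6.93 in osmotic stress. Bid, which carries the signal of death receptors to mitochondria once caspase 8 has cut its product, was at 42.1 TPM in the control, 29.5 in glucose depletion, 21.0 in glutamine depletion, 24.3 in hypoxia, 54.4 in ER stress, 26.6 in oxidative stress and 29.4 in osmotic stress. In glutamine depletion Bcl2l11 was at its highest and Bid at its lowest level, with log2 changes of 0.75 and -0.97. In ER stress the order was the reverse, -0.59 for Bcl2l11 and 0.36 for Bid. The Bid level in glutamine depletion, 49.9% of its control TPM, was just inside the 2-fold limit on the log2(TPM + 1) scale. Bid was below the control in 5 conditions, and these differences depend on that library. Against the median of the 7 libraries the Bid change was -0.47 in glutamine depletion, -0.26 in hypoxia and -0.14 in oxidative stress. It was 0.006 in glucose depletion, 0 in osmotic stress and 0.87 in ER stress. Bcl2l11 was above the control in 5 conditions, and these differences depend on that library too. Against the median of the 7 libraries it was 0.50 in glutamine depletion, 0.17 in glucose depletion and -0.84 in ER stress. In osmotic stress, oxidative stress and hypoxia it was 0, 0.05 and -0.007. Its change against the control in glutamine depletion was 0.84 with 0.1 TPM added and 0.52 with 5 TPM added. Bid overlaps the end of Bcl2l13 on the opposite strand, which was at 13.7 to 22.7 TPM and highest in the control library. Bmf, released from the cytoskeleton on detachment of cells, was at 1.89 TPM in the control, 1.79 in glucose depletion, 2.02 in glutamine depletion, 2.06 in hypoxia, 1.21 in ER stress, 2.42 in oxidative stress and 0.935 in osmotic stress. At these levels the added 1 TPM damps the changes, and the lowest was -0.58 in osmotic stress, where the TPM of Bmf was 49.6% of its control.

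**Figure D2:**
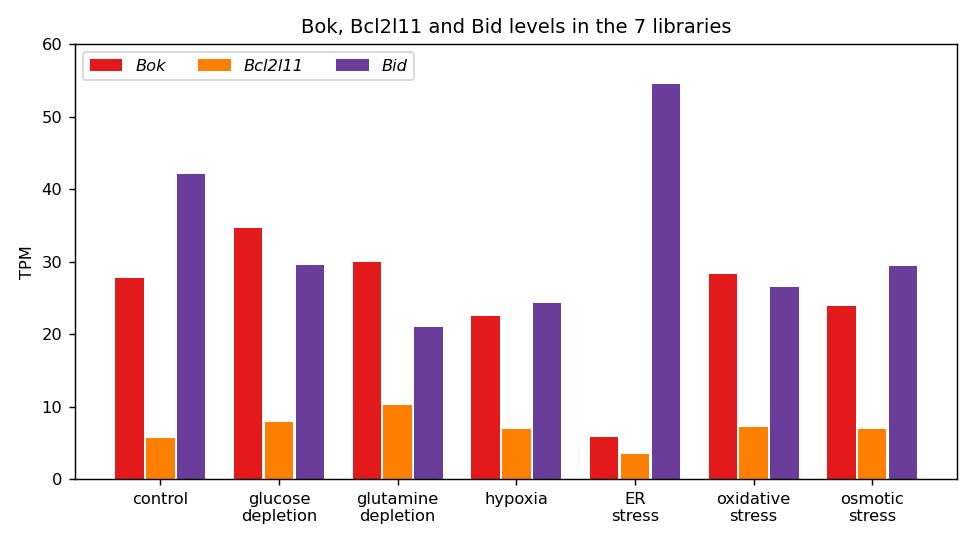
Levels of Bok, Bcl2l11 and Bid in TPM (vertical axis from 0) in each of the 7 libraries, 1 bar per gene and library with no replicate. In ER stress Bok and Bcl2l11 were at their lowest, 5.90 and 3.44 TPM, and Bid at its highest, 54.4 TPM.

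Condition by condition, the count of members past 2-fold was 0 of 10 in glucose depletion, where 4.24% of all 12909 genes passed, and 0 of 10 in glutamine depletion (6.41% of all genes), hypoxia (6.21%), oxidative stress (8.78%) and osmotic stress (11.8%). In ER stress 1 of 10 passed, against 19.6% of all genes in either direction. With 10 genes, counts of 0 or 1 do not set the family apart from all genes in either direction, and the 1 lower gene in ER stress stands beside the 11.0% of all genes lower there. Without the filter on low values, 7.20% of all 49382 rows passed in ER stress, but only 20202 rows were above 0 in that library. That share is therefore not a like background for expressed members. At an average of 10 TPM or more, 17.1% passed. At 1.5-fold, 0 members passed in glucose depletion (9.70% of all genes), and 2 in glutamine depletion, Bcl2l11 up and Bid down (18.1%). Bid was the only member lower by more than 1.5-fold in hypoxia (15.3%) and in oxidative stress (23.5%), and Bcl2l1 in osmotic stress (26.1%). Bak1, Bok and Bcl2l11 were lower by more than 1.5-fold in ER stress, where 40.2% of all genes passed.

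The median log2 change over the 10 members was -0.05 in glucose depletion, 0.06 in glutamine depletion, -0.19 in hypoxia, -0.10 in ER stress, -0.12 in oxidative stress and -0.26 in osmotic stress. Over all genes the medians were -0.02, -0.09, -0.05, 0.00, -0.16 and -0.12 in the same order. The median size of the change without its sign was 0.26 for the members and 0.45 for all genes in ER stress, and 0.39 and 0.30 in osmotic stress. In ER stress 9 of the 10 members lay within the middle 80% of all genes and Bok below it, and in oxidative stress all 10 did. Mcl1 lay above that range in osmotic stress and Bid below it in hypoxia. In glutamine depletion Bcl2l11 and Bid were outside it on opposite sides. In glucose depletion, the library with the narrowest spread of all genes, Bok and Bcl2l11 lay above it and Bid below it.

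**Figure D3:**
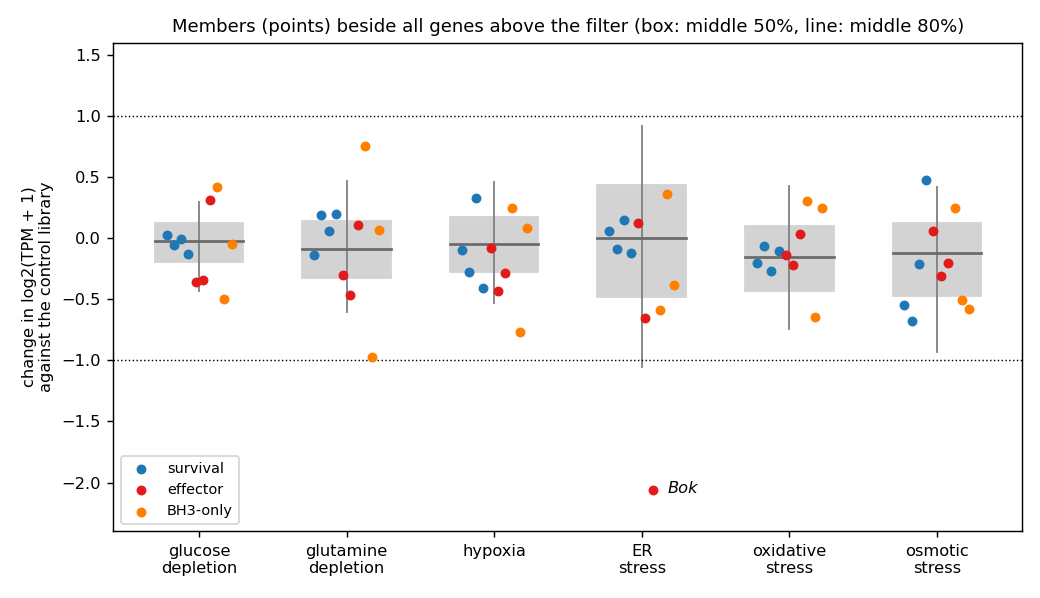
Change in log2(TPM + 1) of the 10 members (points, coloured by role) in each condition, beside all 12909 genes (grey box, middle 50%; grey line, middle 80%; bar, median). The dotted lines mark 2-fold, and Bok in ER stress at -2.06 is the one point beyond them.

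**Figure D4:**
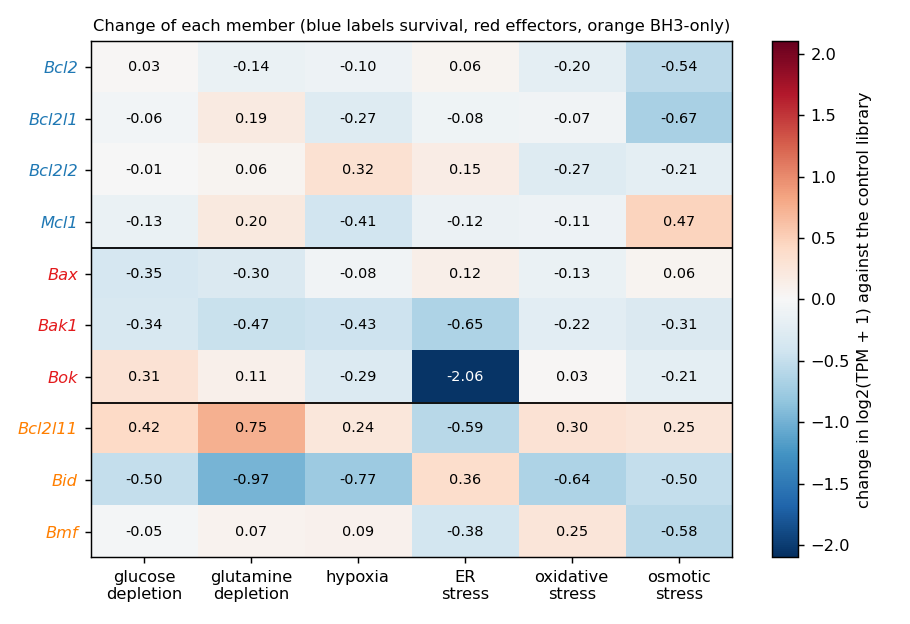
Change in log2(TPM + 1) of each member (rows) in each condition (columns) against the single control library, with the value printed in each cell. The lowest cell is Bok in ER stress at -2.06, followed by Bid in glutamine depletion at -0.97, and the highest is Bcl2l11 in glutamine depletion at 0.75.

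Ratios within a library do not depend on how libraries are scaled to each other. The ratio of Mcl1 to Bcl2l1, the main survival genes, was 2.96 in osmotic stress and between 1.20 and 1.33 in the control and the other 5 conditions. Bax over Bak1 was 2.60 in the control, 2.58 in glucose depletion, 2.93 in glutamine depletion, 3.32 in hypoxia, 4.47 in ER stress, 2.77 in oxidative stress and 3.36 in osmotic stress. For Bid over Bcl2l11 the control had 7.42, glutamine depletion 2.05 and ER stress 15.8, with the other 4 libraries between 3.52 and 4.23. The osmotic stress library was therefore the extreme one for the survival pair, and the ER stress and glutamine depletion libraries for the BH3-only pair.

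**Figure D5:**
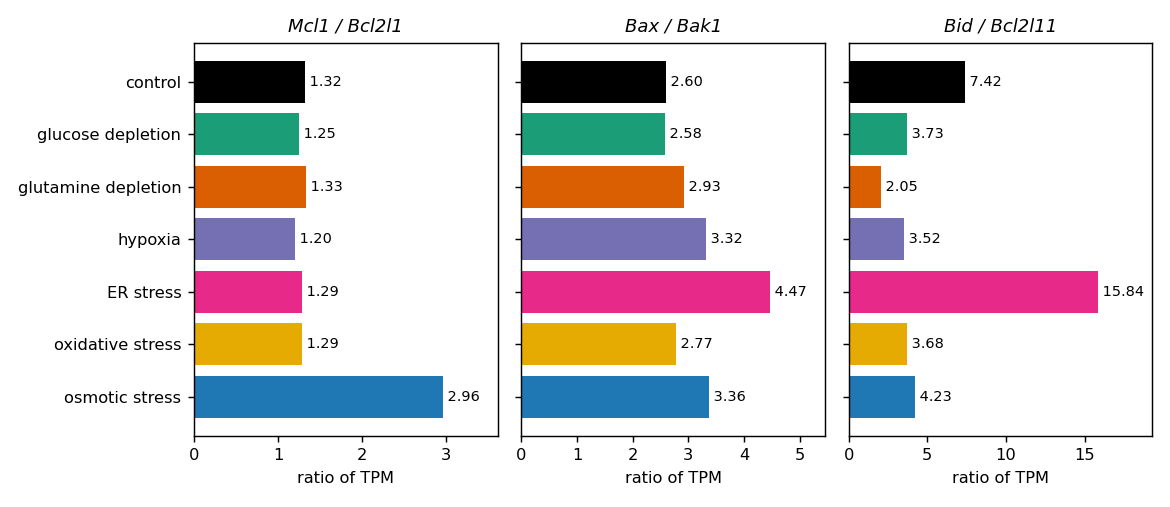
Ratios of TPM within each library (horizontal axes from 0), Mcl1 to Bcl2l1, Bax to Bak1 and Bid to Bcl2l11, 1 bar per library. The osmotic stress library has the highest Mcl1 to Bcl2l1 ratio, 2.96, and the ER stress library the highest of the other two, 4.47 and 15.8.

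Summed by role, the 4 survival genes stood at 217 TPM in the control and the 3 effectors at 507 TPM, a ratio of 0.429. The ratio was 0.500 in glucose depletion, 0.603 in glutamine depletion, 0.412 in hypoxia, 0.444 in ER stress, 0.438 in oxidative stress and 0.454 in osmotic stress. Glutamine depletion had the highest ratio, with the survival genes at 245 TPM, the highest sum of the 7 libraries. Its effectors, at 407 TPM, were the lowest, but nearly level with glucose depletion at 410 TPM. The BH3-only members took 6.41% of the summed TPM of the family in the control, 4.85% in glutamine depletion and 8.05% in ER stress, most of it from Bid. These shares depend on which BH3-only genes are members. The 5 other BH3-only genes listed, outside these sums, together had 110.9 TPM in the control. They had 131.2 TPM in glutamine depletion and 105.1 TPM in ER stress, the opposite order. Protein amounts were not measured, and these sums say nothing on the binding of one protein to another.

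Relatives outside the 10 members were read from lists of genes. Of 15 relatives, 7 passed the expression filter. The survival genes Bcl2a1a, Bcl2a1b and Bcl2a1d, near-identical copies, were listed at 0 in all libraries, as was the BH3-only gene Bik. Bbc3, which encodes PUMA, a BH3-only target of p53, fell in osmotic stress to 5.54 TPM from a control level of 19.1 TPM (log2 change -1.62), and was at 15.7 to 26.4 TPM elsewhere. Pmaip1, which encodes NOXA, the BH3-only partner of MCL1, had 84.7 TPM in oxidative stress and 74.7 TPM in glutamine depletion against a control level of 43.3 TPM, log2 changes of 0.95 and 0.78 that did not pass 2-fold. Bad was between 33.1 and 60.2 TPM. The mitophagy receptors Bnip3 and Bnip3l, atypical relatives and targets of HIF, passed 2-fold in hypoxia, with log2 changes of 4.85 and 1.86. In osmotic stress Bbc3 was the one relative of the 7 past 2-fold, where 11.8% of all genes passed. None passed in glucose depletion (4.24% of all genes), glutamine depletion (6.41%), ER stress (19.6%) or oxidative stress (8.78%). With 7 genes, counts of 0 or 1 do not set the relatives apart from all genes. The 2 past 2-fold in hypoxia stand beside 6.21% of all genes there.

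Downstream of the membrane, all 8 genes of the apoptosome and caspase list passed the filter, and 1 passed 2-fold, Casp6 in ER stress, from 24.9 to 6.14 TPM (log2 change -1.86). Apaf1, the scaffold of the apoptosome, was at 11.9 to 18.9 TPM. Of the 5 inhibitor of apoptosis genes, Birc5 passed 2-fold in ER stress, from 99.6 to 41.5 TPM (-1.24); its product survivin also serves in cell division. Xiap, the direct caspase inhibitor, had a control level of 22.0 TPM, and the 6 conditions had 12.5 to 18.5 TPM. In the death receptor branch that leads to BID, 1 of 7 genes passed, the receptor gene Fas in ER stress, from 23.2 to 4.40 TPM (-2.17). Cflar, the decoy that blocks caspase 8, had a control level of 35.0 TPM, and the 6 conditions had 38.9 to 68.4 TPM. The single control library was the highest for Xiap and the lowest for Cflar, so the shared direction of these differences rests on it. Of 5 transcriptional regulators above the filter, Ddit3, which encodes CHOP, passed 2-fold up in ER stress (3.77) and down in osmotic stress (-1.46). Trp53, the gene for p53, had 177 TPM in ER stress against 95.7 TPM in the control (0.88). Foxo1 was highest in glutamine depletion, at 16.7 TPM against 8.52 in the control (0.89). Foxo3, also in this list, was lower in glutamine depletion, at 9.69 TPM against 13.9 in the control (-0.48). Its highest level was in hypoxia, at 28.9 TPM (0.998). Over all 9 lists of related genes, 41 of 50 passed the filter, and 4 of the 41 passed 2-fold in ER stress (19.6% of all genes), 3 in hypoxia (6.21%), 2 in osmotic stress (11.8%) and 0 in the remaining conditions.

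The genes most like each member over the 7 libraries were found by Pearson r of log2(TPM + 1) among the 8819 genes that averaged 10 TPM or more. They were Impad1 (r = 0.998) and Pkig (0.988) for Bok, Atp2b4 (0.984) and Tpbg (0.974) for Bcl2l11, and Acad8 (0.975) for Bid. For Mcl1 they were Camk2d (0.969) and Ppp1r2 (0.954), for Bcl2l1 Gorab (0.987) and Dvl3 (0.985), for Bcl2 Rnf8 (0.995) and Ccdc25 (0.991), and for Bcl2l2 Ifngr1 (0.980) and Arhgap29 (0.962). Bax went with Emc2 (0.979) and Gnptg (0.975), Bak1 with Gpsm1 (0.949) and Cspp1 (0.942), and Bmf with Tnfrsf1b (0.987) and mt-Co3 (0.977). With 7 libraries such values are common, and 382 genes had an r above 0.9 with Bok, whose pattern is set by a single library, against 17 with Mcl1 and 17 with Bak1.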

How the data were processed

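RNA-seq libraries of MEFs were made with a stranded mRNA protocol and paired-end reads, 1 per condition and 7 altogether. Reads were quantified by the authors with kallisto (version 0.43.1 per the labels, default settings) on the cDNA transcripts of GRCm38, and the deposited TPM of a gene is the sum over its transcripts. Default settings make no use of strand, so genes that overlap on opposite strands are not fully separated. TPM keeps no read count: the depth of each library is unknown, and no counting interval can be given. Groups came from the treatment labels, and every deposited column belongs to 1 sample.

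The change in log2(TPM + 1) against the control was computed for all rows, with 2-fold as the limit and an average of 2 TPM or more across the 7 libraries as the filter for the background of all genes. Members were counted whether or not they passed it. The members and gene lists were chosen with earlier results of these data known. All 10 members are named. Other genes come from the lists and are named where 1 passed 2-fold or, as for Apaf1, Bad, Bcl2a1a, Bcl2a1b, Bcl2a1d, Bik, Cflar, Dynll1, Foxo1, Foxo3, Huwe1, Pmaip1, Trp53, Vdac1, Vdac2, Vdac3 and Xiap, after their values were seen. For likeness the 2 genes with the highest r were taken, and some items are not reported here. Alternatives were other pseudocounts, folds, filters and references, centring, and removal of mitochondrially encoded genes. Restriction to protein-coding genes and the addition of Gm20521 to Bcl2l2 were chosen after seeing the data. Gene locations and types are those of GENCODE M21 (GRCm38), matched by Ensembl identifier, which all 10 members did. Promoter sequences are those of RefSeq (GRCm38.p6), with all 10 members matched by symbol. The counting of changes was tested on simulated data with little noise and planted changes far above the 2-fold limit. That test checks the counting itself and says nothing on smaller changes or on the spread between cultures. The scripts ran on Python 3.11.15 with pandas 2.3.3 and numpy 2.4.6, and plots were drawn with matplotlib 3.10.9.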

Additional observations from a re-analysis of the deposited data

How the results depend on the processing

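No paired analysis was possible because each group holds 1 library, and for the same reason no replicate could be left out. At a 1.5-fold limit the count of members changed went from 0 to 2 in glutamine depletion, to 1 in osmotic stress, oxidative stress and hypoxia, and from 1 to 3 in ER stress. Apart from Bok in ER stress, each of these changes fell inside 1.5-fold under at least 1 alternative. In ER stress Bcl2l11 was -0.34 with a pseudocount of 5 TPM, and Bak1 was -0.31 against the median library. After centring, Bcl2l1 in osmotic stress was -0.55. Others went past it, such as Bcl2 in osmotic stress, at -0.77 with a pseudocount of 0.1 TPM. The counts at 2-fold were 0, 0, 0, 0, 0 and 1 with a pseudocount of 0.1 TPM, the median of the 7 libraries as the reference, leaving out mitochondrially encoded genes and centring on the median gene. The same counts came from 3-fold, a pseudocount of 5 TPM and an average of 10 TPM or more. These settings could only keep or lower a count, so their agreement says little. The last of them also left Bcl2, Bcl2l11 and Bmf out of the count. With a pseudocount of 0.1 TPM, Bid in glutamine depletion was only just inside the 2-fold limit, at -0.9997, and Bmf in osmotic stress was at -0.94. On plain TPM these 2 levels were 49.9% and 49.6% of the control, past 2-fold. The count at 2-fold therefore depends on the added value. The median member change in osmotic stress was -0.26, and -0.14 after centring or -0.10 against the median library. In oxidative stress it was -0.12, and 0.036 after centring or 0 against the median library, and in hypoxia it was -0.19, and -0.049 against the median library. Other medians moved by less than 0.1 log2 units. Of the 60 single changes, 4 took the other sign after centring and 5 against the median library, none of them past 2-fold. Bok in ER stress was -2.06, and between -2.21 (pseudocount of 0.1 TPM) and -1.59 (pseudocount of 5 TPM) under the alternatives. The ratios of summed survival to effector TPM are the same without mitochondrially encoded genes, as they must be, because the removal rescales both sums of a library alike. The share of all genes past 2-fold depended on which genes were counted. It was 4.24% in glucose depletion, but 2.45% with no filter, 1.79% at an average of 10 TPM or more and 1.04% of protein-coding genes. In the other conditions these 3 settings gave 2.95%, 4.04% and 3.76% in glutamine depletion (6.41% in the main setting), 4.96%, 6.71% and 8.76% in osmotic stress (11.8%), 7.20%, 17.1% and 16.9% in ER stress (19.6%), 3.88%, 5.47% and 5.25% in oxidative stress (8.78%), and 3.10%, 3.48% and 2.95% in hypoxia (6.21%).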

Other observations

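The channel genes Vdac1, Vdac2 and Vdac3, of which the product of Vdac2 holds BAK at the membrane, stayed within 2-fold of the control in all 6 conditions. Vdac1 was at 420.1 TPM in hypoxia against 307 in the control and 214 in ER stress, and Vdac2 was between 209 and 268 TPM in the 7 libraries. Of the 6 genes for protein partners and turnover, Fbxw7, a ubiquitin ligase subunit that acts on MCL1, passed 2-fold in hypoxia, from 10.8 to 24.1 TPM (log2 change 1.09), a condition in which 6.21% of all genes passed. Huwe1, another ligase for MCL1, had 90.2 TPM in osmotic stress against 49.6 TPM in the control (log2 change 0.85). The control was the lowest of the 7 libraries for Huwe1, and this change rests on it. Dynll1, the dynein light chain that holds BIM on microtubules, was at 514 TPM in ER stress and 1077 TPM in hypoxia.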
